A study of Mus musculus and Rattus norvegicus with 11 samples.

Results

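Pi16, Pcolce2, Krtdap, Cilp, Smpd3, Clec3b, Prg4, Dpp4, Mfap5 and Tnxb are 10 genes chosen by their counts in single-cell libraries of peripheral nerve, as genes higher in cells named fibro than in cells named nmSC. They are 10 of the 31053 mouse genes counted, and 9 of them are among the 32883 rat genes; Pcolce2 was not analysed in rat. Because the difference between fibro and nmSC chose them, that difference is described below without a test.

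Single-cell RNA was counted in 9 mouse libraries of sciatic nerve and brachial plexus cells and in 2 rat libraries of sciatic nerve cells. The mouse groups were C57BL/6 (libraries 1, 3 and 4), NOD control (libraries 1, 2-1 and 2-2) and libraries labelled ICAM-1-/-NOD (1 to 3), that is, as a knockout of the adhesion molecule gene Icam1 on the NOD background. The rat libraries 1 and 2 came from naive Lewis rats. The series calls C57BL/6 and Lewis nerve healthy and uses both NOD groups, which share the NOD background, as models of chronic autoimmune neuritis. Neither age, sex nor the knockout allele is given in the sources used here. Mouse cells came from animals perfused with saline, were freed with enzymes, cleared of myelin and sorted as live, whereas rat cells passed a density gradient without a sort. NOD control 2-1 and 2-2 share a number in their titles and were summed as NOD control 2, which leaves 3 C57BL/6, 2 NOD control and 3 ICAM-1-/-NOD samples. The labels do not say that these came from separate animals, so a p-value measures only the spread between these samples, which may be technical.

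A peripheral nerve is wrapped in layers. The epineurium is the outer collagen-rich coat around the bundles of fibres, the perineurium is a tight cellular sleeve around each bundle, and the endoneurium is the loose tissue between the fibres. Fibroblasts of the outer coat resemble the adventitial fibroblasts that surround blood vessels and organs in many tissues. Pi16 and Dpp4 are widely used marks of such adventitial cells, and several of the other genes encode proteins that build or process the extracellular matrix.

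The depth and labels limit what follows. Libraries held 400 to 3800 barcodes in mouse with 571042 to 6631004 unique molecular identifiers (UMIs, counted RNA molecules), and 6500 and 6000 barcodes in rat with 19074026 and 17958844 UMIs. Any pair of mouse libraries shared at most 15 barcodes and the rat pair shared 59. Icam1 stood at 246, 259 and 254 CPM (UMIs of a gene per 1000000 UMIs of the set) in the libraries labelled ICAM-1-/-NOD, against 44.1 to 94.5 in NOD control and 47.3 to 88.5 in C57BL/6. Icam1 was thus highest where the label says it was knocked out. These values cover whole libraries, which differ in their cell types. Within cells named nmSC Icam1 stood at 111, 149 and 148 CPM with the label, from 11, 18 and 11 UMIs. It stood there at 22.1 to 46.4 CPM in NOD control and at 0 to 25.8 CPM in C57BL/6. A 3' count does not report on a deleted part elsewhere in the gene. Directions below that use this label rest on it alone.

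The deposited cell names were compared with marker lists. Cells named fibro held 20 other adventitial fibroblast genes at a summed 17112 to 22906 CPM in the 5 C57BL/6 and NOD control samples, against 4698 to 5533 CPM in nmSC. A list of 6 Schwann cell genes (S100b, Sox10, Mbp, Ncam1, L1cam, Cryab) reached 182 to 396 CPM in these fibro sets, and the perineurial list 72.4 to 178 CPM. Cells named nmSC carried few Schwann transcripts, 219 to 484 CPM of that list against 4957 to 12491 CPM in cells named mySC. They carried 14 endoneurial fibroblast genes such as Sox9, Cxcl14 and Apod at 31311 to 41240 CPM, against 1242 to 4824 CPM in fibro. The data therefore go against the name nmSC, which is kept here only as a deposited label, and fibro against nmSC compares 2 sets that both carry fibroblast genes. The rat libraries had the same arrangement, with the adventitial list at 35310 and 34133 CPM in fibro and the endoneurial list at 47089 and 41837 CPM in nmSC. C57BL/6 1 stood apart in fibro, where the list of 6 general fibroblast genes (Col1a1, Col1a2, Col3a1, Dcn, Pdgfra, Gsn) summed to 28255 CPM, against 61581 to 71255 CPM in the other 4 mouse samples.

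Promoter sequence was read for 6 of the 10 genes, those with an entry in the RefSeq promoter table (GRCm38.p6): Pi16, Pcolce2, Krtdap, Cilp, Dpp4 and Tnxb. Smpd3, Clec3b, Prg4 and Mfap5 had none. Of these, 4 windows of 250 bases upstream of the RefSeq start are shown. In C57BL/6 3 Krtdap and Dpp4 were detected in the same fibro cells as Pi16 more often than their shares give (below). In most libraries Cilp was not, and Tnxb shares a 7-base match with Krtdap. Each is printed 5′ to 3′ on the gene's strand, with capitals marking a match to a motif. The motifs marked are the box read by the general transcription machinery, TATAAA, named the TATA box below, and the site of the Fos and Jun dimer AP-1, which was searched as TGANTCA.
Krtdap, chr7:30787655-30787904, plus strand: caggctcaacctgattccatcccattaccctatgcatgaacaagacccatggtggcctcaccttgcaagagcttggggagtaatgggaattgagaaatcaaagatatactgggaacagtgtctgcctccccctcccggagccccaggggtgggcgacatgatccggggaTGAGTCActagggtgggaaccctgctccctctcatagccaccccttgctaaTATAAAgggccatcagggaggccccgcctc
Dpp4, chr2:62412232-62412481, minus strand: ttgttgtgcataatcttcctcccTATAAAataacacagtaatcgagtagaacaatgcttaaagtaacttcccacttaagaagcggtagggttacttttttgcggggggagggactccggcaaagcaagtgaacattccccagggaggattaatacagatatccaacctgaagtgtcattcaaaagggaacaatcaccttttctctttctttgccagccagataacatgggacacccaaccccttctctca
Cilp, chr9:65264930-65265179, plus strand: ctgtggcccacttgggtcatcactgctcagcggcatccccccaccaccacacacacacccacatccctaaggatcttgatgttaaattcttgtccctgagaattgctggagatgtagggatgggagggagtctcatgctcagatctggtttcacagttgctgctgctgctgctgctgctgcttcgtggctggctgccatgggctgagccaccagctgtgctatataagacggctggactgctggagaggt
Tnxb, chr17:34670285-34670534, plus strand: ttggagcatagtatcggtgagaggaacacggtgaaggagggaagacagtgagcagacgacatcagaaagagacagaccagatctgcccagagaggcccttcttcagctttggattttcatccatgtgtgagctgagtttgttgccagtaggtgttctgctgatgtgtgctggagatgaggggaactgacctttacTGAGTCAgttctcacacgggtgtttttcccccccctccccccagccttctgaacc
Both strands were searched for the TATA box letters, the AP-1 letters and those of the GC box (GGGCGG), and no match overlapped another. Krtdap had TATAAA at bases 30 to 25 before the start and TGAGTCA at bases 81 to 75. Tnxb had the same TGAGTCA at bases 55 to 49, and Dpp4 had TATAAA far upstream, at bases 227 to 222. The Cilp window held no match to these 3 spellings. Other spellings of the TATA box were not searched, and the Cilp window holds the letters tatataag near its 3′ end. Among all 32851 windows of this length in the table, 12.4% held the TATA box letters, 6.75% the AP-1 letters and 32.7% the GC box letters. A match is a description of letters and says nothing of binding in these cells.

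The levels are described first for the proteins of the matrix, then for secreted regulators, then for cell-surface and membrane enzymes, and last for Krtdap. Levels are CPM of the UMIs summed over the cells of a sample. These 3' counts do not scale with transcript length, yet levels are compared here between samples and cell types of 1 gene, not between genes. Fibro sets held 350, 1123 and 78 cells in C57BL/6 1, 3 and 4, 231 and 288 cells in NOD control 1 and 2, and 1823 and 1667 cells in Lewis rat 1 and 2. Lymphocytes should lack these transcripts, other than Dpp4, which T cells can express as the surface protein CD26. For the other genes lymphocytes give the level that free RNA can reach. Their values covered 0 to 105 CPM over the 5 mouse samples for Clec3b and 0 to 74.4 CPM for Mfap5. For the other 8 genes they lay within 0 to 35.0 CPM, with Dpp4 given only as a level and not as free RNA. The 35.0 CPM of Dpp4 and Prg4 in NOD control 1 came from 1 UMI each, and the 105 CPM of Clec3b there from 3 UMIs.

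Mfap5 (chr6:122505845-122529290) encodes a microfibril-associated glycoprotein of elastic fibres. In fibro it stood at 2145, 2340.4 and 3386 CPM in C57BL/6 1, 3 and 4, at 3739.6 and 2308 CPM in NOD control 1 and 2, and at 2985 and 2614 CPM in Lewis rat 1 and 2. In nmSC it stood at 702, 706 and 1257 CPM, at 699.6 and 633 CPM, and at 577.0 and 577.1 CPM in the same samples. All 7 fibro values lay above all 7 nmSC values, by 2.69- to 5.35-fold within a mouse sample and by 5.17- and 4.53-fold in rat. Mfap5 in nmSC lay well above its lymphocyte level in mouse, so it was shared by both sets at different heights.

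Tnxb (chr17:34670535-34719815) encodes tenascin-X, a large matrix glycoprotein that organises collagen. Fibro of C57BL/6 1, 3 and 4 held it at 462, 377 and 333 CPM, NOD control fibro at 682 and 651 CPM, and rat fibro at 626 and 654 CPM. The nmSC values were 136, 73.6 and 79.3 CPM in C57BL/6, 229 and 236 CPM in NOD control, and 259.8 and 267 CPM in rat. The ratio of fibro to nmSC ran from 2.76 to 5.13 in mouse and was 2.41 and 2.45 in rat. Both sets had their lowest mouse values in C57BL/6 and their highest in NOD control, without overlap of the groups.

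Cilp (chr9:65265180-65280605) encodes the cartilage intermediate layer protein, a secreted matrix protein. In fibro it stood at 58.5, 148 and 84.6 CPM in C57BL/6 1, 3 and 4, at 170.5 and 167 CPM in NOD control, and at 194 and 202 CPM in rat. In nmSC it stood at 0, 1.69 and 0 CPM in C57BL/6 and at 3.76 and 0.996 CPM in NOD control, from at most 3 UMIs in a sample. Rat nmSC had 8.56 and 14.3 CPM, so fibro exceeded it 22.7- and 14.1-fold there. Mouse lymphocytes had 0 UMIs of Cilp in all 5 samples.

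Prg4 (chr1:150449412-150466165) encodes lubricin, the lubricating proteoglycan of joints. In fibro of C57BL/6 1, 3 and 4 it stood at 5.57, 21.7 and 12.1 CPM, from 2, 59 and 2 UMIs. In fibro of NOD control 1 and 2 it stood at 193 and 101 CPM, from 51 and 37 UMIs. It had no UMI in nmSC of C57BL/6 and stood at 3.76 and 1.99 CPM in nmSC of NOD control. The fibro to nmSC ratio was 51.4 (95% exact interval 16.6 to 257) and 50.8 (13.1 to 435) in NOD control, at least 12.9 in C57BL/6 3 by a floor of 3 counts, and could not be read in C57BL/6 1 and 4, where both sets were under that floor. Rat fibro had 12.3 and 11.3 CPM, close to C57BL/6.

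Clec3b (chr9:123150946-123157432) encodes tetranectin, a secreted lectin that binds plasminogen. Within fibro it was the most widely detected of the 10. In fibro it stood at 3378, 3727 and 3700.3 CPM in C57BL/6 1, 3 and 4, at 4475 and 3582 CPM in NOD control, and at 4449 and 3517 CPM in rat. In nmSC it stood at 483, 721 and 804 CPM in C57BL/6, at 695 and 561 CPM in NOD control, and at 2403 and 2048 CPM in rat. Fibro exceeded nmSC 4.6- to 6.99-fold in mouse but only 1.85- and 1.72-fold in rat, and rat nmSC stood above every mouse nmSC sample.

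Pcolce2 (chr9:95637601-95698096) encodes an enhancer of the proteinase that trims procollagen. Fibro of C57BL/6 1, 3 and 4 held 454, 705 and 611 CPM and fibro of NOD control 1 and 2 held 1091 and 536 CPM. The nmSC values were 0, 5.06 and 0 CPM and 3.76 and 4.98 CPM. The fibro to nmSC ratio was 139 in C57BL/6 3 and 290 and 108 in NOD control, and at least 20.05 and 17.98 in C57BL/6 1 and 4.

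Pi16 (chr17:29317680-29330593) encodes peptidase inhibitor 16, a protein of the CAP family. Its level in fibro was 2601, 2143 and 2951 CPM in C57BL/6 1, 3 and 4, 4213 and 2212 CPM in NOD control, and 1001 and 911 CPM in rat. The nmSC values were 7.55, 28.1 and 0 CPM in C57BL/6, 23.8 and 65.7 CPM in NOD control, and 174 and 165 CPM in rat. Its fibro to nmSC ratio was 345 and 76.3 in C57BL/6 1 and 3, at least 86.9 in C57BL/6 4, 177 and 33.7 in NOD control, and 5.76 and 5.52 in rat. Rat lymphocytes held 56.7 and 107 CPM of Pi16, below rat nmSC. Mouse fibro stood above rat fibro in all 5 samples, but the species differ in preparation and counting, so the gap was not tested.

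Dpp4 (chr2:62330073-62412231) encodes a cell-surface dipeptidase, also called CD26. In fibro it stood at 109, 121 and 224 CPM in C57BL/6 1, 3 and 4 and at 148 and 118 CPM in NOD control, against 37.7, 46.6 and 34.0 CPM and 40.1 and 24.9 CPM in nmSC. Fibro exceeded nmSC 2.58- to 6.59-fold in mouse. The order was the other way in rat, where fibro had 47.7 and 40.0 CPM and nmSC 102 and 86.2 CPM, 2.14- and 2.15-fold more.

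Smpd3 (chr8:106252548-106337988) encodes neutral sphingomyelinase 2, a membrane enzyme that releases ceramide from sphingomyelin. In fibro it stood at 3005, 279 and 756 CPM in C57BL/6 1, 3 and 4, at 68.2 and 104 CPM in NOD control, and at 329 and 289 CPM in rat. In nmSC it stood at 151, 19.7 and 34.0 CPM in C57BL/6, at 10.0 and 12.9 CPM in NOD control, and at 17.1 and 15.1 CPM in rat. The sample order was the same in both sets: C57BL/6 1 was highest and both NOD control samples were lowest. Within a sample the fibro to nmSC ratio was 14.2 to 22.2 in C57BL/6, 6.8 and 8.03 in NOD control, and 19.2 and 19.1 in rat.

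Krtdap (chr7:30787896-30791097) encodes a small secreted protein first described in differentiating keratinocytes. Its level in fibro was 169.9, 154 and 175 CPM in C57BL/6 1, 3 and 4 and 250.1 and 73.8 CPM in NOD control. In nmSC it had 2 UMIs in C57BL/6 3 and none in the other 4 samples, which gave a ratio of 137 (95% exact interval 37.6 to 1132) in C57BL/6 3. In rat fibro it had 0 and 1 UMI in 1823 and 1667 cells. The keratinocyte genes Krt5 and Krt14 had no UMI in fibro of any of the 5 mouse samples, while the 5-gene keratinocyte list, to which Krt10 belongs, stood at 41.7 to 84.6 CPM.

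By CPM as counted, all 10 genes were at least 2-fold above nmSC in each of the 5 mouse samples, as were 383 of the 12235 genes with at least 10 UMIs in those sets (3.13%). In rat 6 of 9 met the same rule in both libraries (Pi16, Cilp, Smpd3, Prg4, Mfap5 and Tnxb), beside 878 of 12035 genes (7.3%). For Prg4 in C57BL/6 1 and 4 this rests on 2 against 0 UMIs, under the floor of 3 counts, so a 2-fold difference is not shown there. These counts follow from how the genes were picked. Clec3b fell short of 2-fold in rat, Dpp4 was lower in fibro, and Krtdap was nearly absent.

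**Figure D1:**
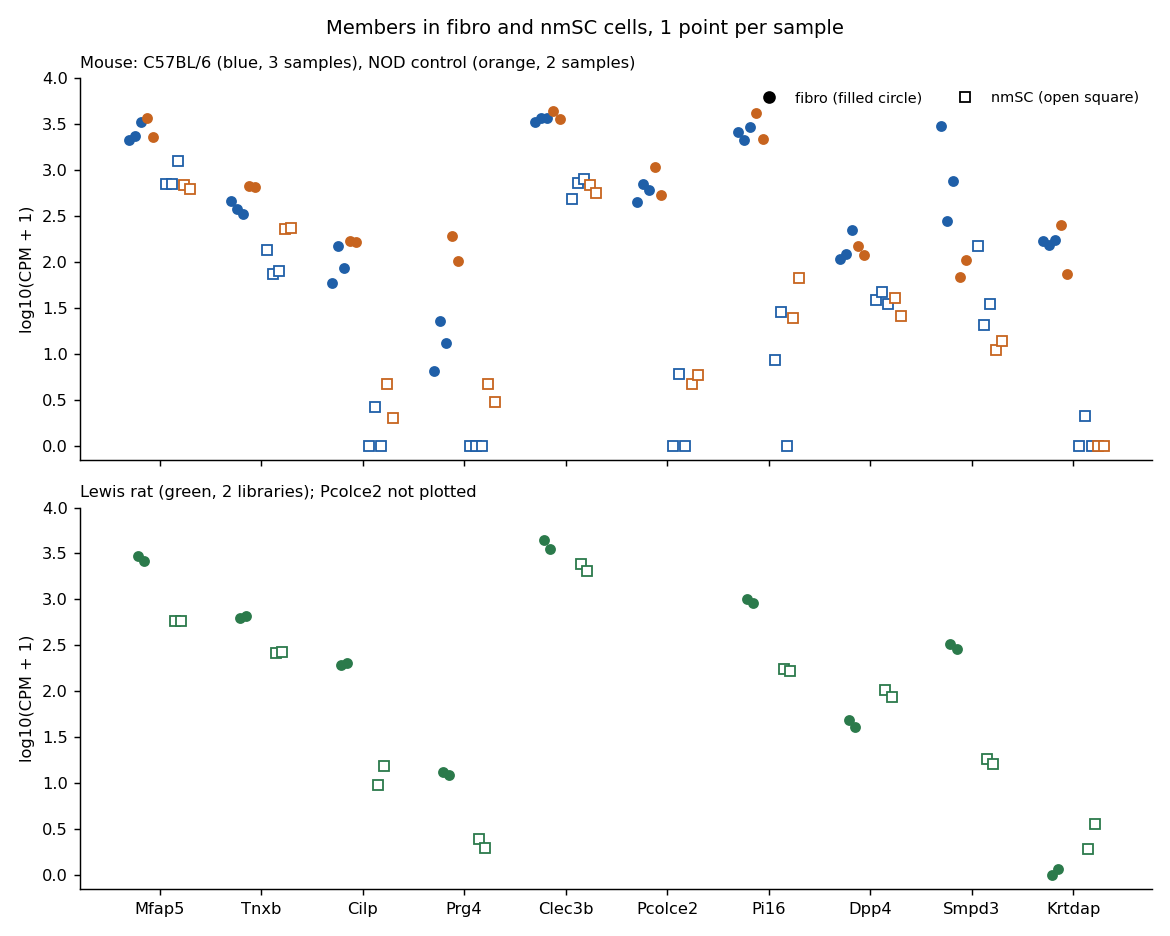
Level of each of the 10 genes as log10(CPM + 1) in fibro (filled circles) and nmSC (open squares) of every C57BL/6, NOD control and Lewis rat sample. The symbols part widely for Pi16, Pcolce2 and Krtdap in mouse and come close for Clec3b in rat, and for Dpp4 in rat the open squares lie above the circles.

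To compare shares of cells, every cell was thinned to 1000 UMIs and shallower cells were left out. Clec3b was then found in 89.8% of 1285 C57BL/6 fibro cells, 93.0% of 299 NOD control cells and 92.5% of 3490 rat cells. Mfap5 was found in 77.1%, 80.3% and 87.0% of them and Pi16 in 46.2%, 56.9% and 39.3%. Tnxb was found in 30.3%, 40.1% and 45.0% and Smpd3 in 26.4%, 8.03% and 23.1%. The remaining genes marked smaller subsets of C57BL/6 fibro: Pcolce2 44.8%, Dpp4 10.2%, Cilp 8.87%, Krtdap 7.24% and Prg4 1.71%. Thinning left out 266 of 1551 C57BL/6, 220 of 519 NOD control and 0 of 3490 rat fibro cells.

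C57BL/6 nmSC cells at the same depth (997 cells) held Clec3b in 43.8%, Mfap5 in 47.3%, Tnxb in 5.82% and Dpp4 in 4.41%. Pi16 was found in 2.41% of them and Smpd3 in 2.31%, while C57BL/6 lymphocytes (158 cells) held Clec3b in 3.16%, Mfap5 in 2.53%, Smpd3 in 1.90% and Pi16 in none, which allows up to 2.31% by an exact interval. In rat, nmSC held Clec3b in 82.9% and Dpp4 in 8.94% of 3916 cells, and lymphocytes held Clec3b in 8.22% of 1228 cells. Rat lymphocytes held Dpp4 in 1.47%, which is no background level for this gene. Mfap5 was found in 39.7% of rat nmSC cells and in 21.3% of rat lymphocytes, a higher share of lymphocytes than for any other of the 10.

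Across all named cell types fibro held the highest group level in C57BL/6 for 8 of the 10 genes; the exceptions rest on EC2, a set of 22 cells. Mfap5 stood at 2705 CPM in C57BL/6 EC2 (73 UMIs, 95% interval 2120 to 3401) and at 2372 CPM in C57BL/6 fibro, and Prg4 had a single UMI in EC2. Mfap5 also reached 1365 CPM in the 53 EP cells of NOD control 2, where 25 cells carried it. These EP cells had no UMI of Clec3b or Pi16. Tnxb stood at 311 CPM in EP of NOD control, from 12 UMIs, above its NOD control nmSC level of 233 CPM. Outside fibro in mouse, Pi16 was highest in C57BL/6 vSMC at 104.5 CPM and Pcolce2 there at 24.3 CPM, while Clec3b was next highest in C57BL/6 nmSC at 709 CPM. Cilp of Lewis rat 1 reached 57.0 CPM in vascular EC.

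**Figure D2:**
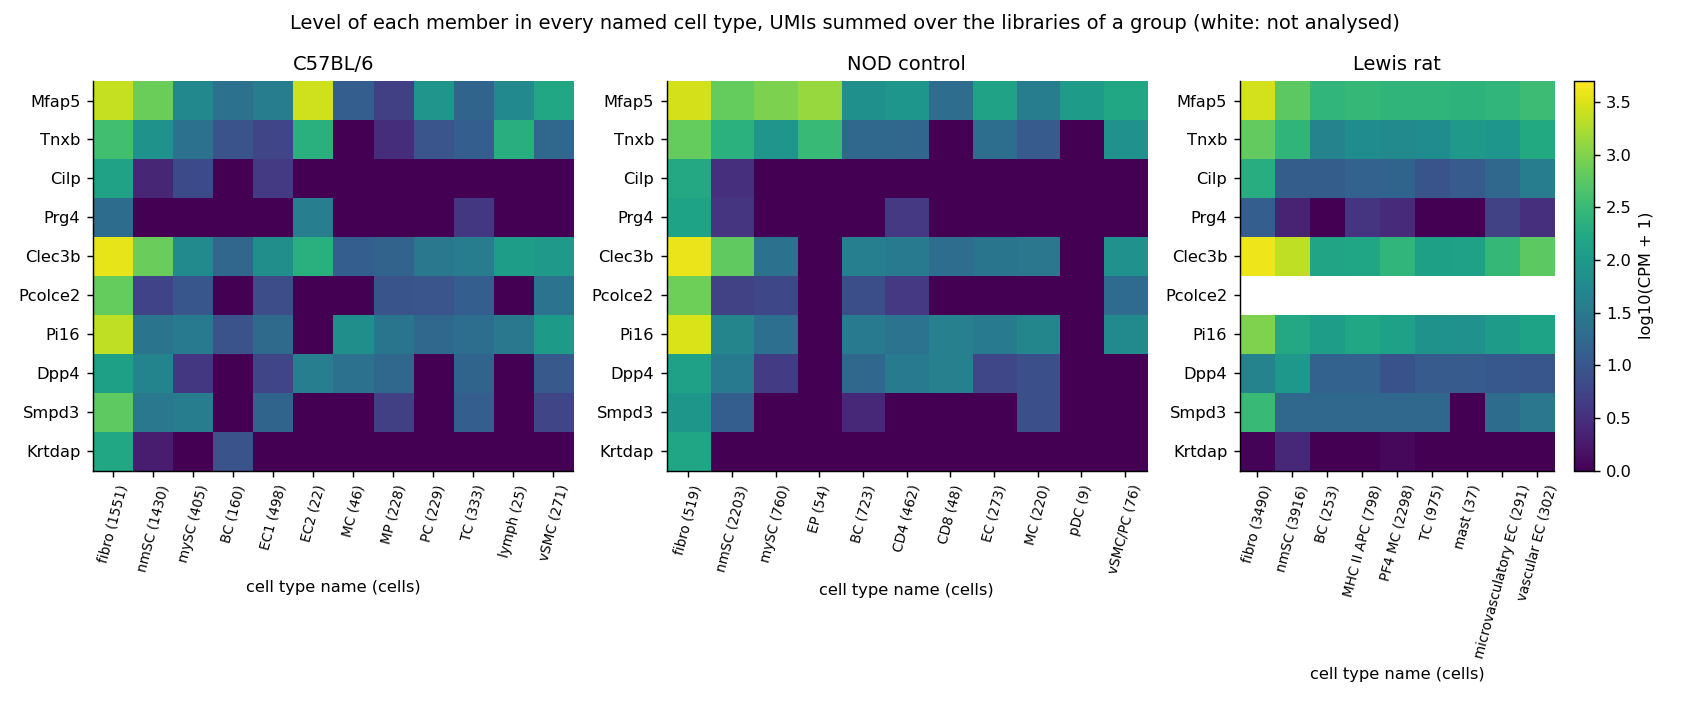
Level of each gene as log10(CPM + 1) in every named cell type of C57BL/6, NOD control and Lewis rat. Fibro holds the highest or nearly the highest level of most genes, Clec3b and Mfap5 extend to nmSC, and Mfap5 also appears in EC2 of C57BL/6 and EP of NOD control.

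The genes whose levels most resembled those of the 10 were ranked by Pearson's r across cell sets. Over 31 mouse sets, each a cell type in a group, the closest were Inmt (r = 0.941), a methyltransferase gene, Dpt (0.938), which encodes the collagen-binding dermatopontin, and Sfrp2 (0.937), a secreted Wnt antagonist. Gdf10 (0.933), Stmn4 (0.933) and Gm31378 (0.924) followed. Over 16 rat sets the closest were Wfdc1 (0.985), Aoc3 (0.983), Serpinf1 (0.982), Art3 (0.982), Rarres2 (0.981) and Pcolce (0.981), so none of the 6 closest genes was shared by both species. Set against the mean of the others, Cilp was the most typical of the 10 in mouse (0.895) and Dpp4 the least (0.623). In rat, Mfap5 was the most typical (0.963) and Krtdap the least (0.191). The sets of 1 group share libraries and depth, and these values carry no test.

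Within fibro cells the genes were not spread evenly. At 1000 UMIs a fibro cell held a median of 3 or 4 of the mouse genes in each C57BL/6 and NOD control library and 3 in both rat libraries, and 0 to 2.78% of cells held none. For each pair, the cells holding both genes were counted beside the number given by the product of the single shares. Clec3b and Mfap5, both in most cells, came out at 724 cells against 714 in C57BL/6 3, a ratio of 1.01.

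Krtdap was found almost entirely in Pi16-positive cells. In C57BL/6 3, 66 of 69 Krtdap cells also held Pi16, against 28.2 by the product of shares, and in the other 5 control mouse libraries all of them did (18 of 18, 6 of 6, 18 of 18, 4 of 4 and 7 of 7). Dpp4 and Pi16 met in 71 cells against 41.2 in C57BL/6 3, in 66 against 34.5 in Lewis rat 1 and in 47 against 25.8 in Lewis rat 2. Smpd3 and Pi16 met in 146 against 78.4 in C57BL/6 3 and in 224 against 174 and 191 against 143 in rat. Krtdap also met Smpd3 in 30 cells against 12.8 and Dpp4 in 18 against 6.73 in C57BL/6 3. In C57BL/6 3 the pairs given here among Pi16, Krtdap, Dpp4 and Smpd3 thus met in more cells than their shares give. In rat this held for Pi16 with Dpp4 and with Smpd3. Other than for Krtdap with Pi16, the smaller mouse libraries are not given here.

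Cilp met several of these genes in fewer cells than products of their shares give, though not in every library. It met Krtdap in 0 cells of C57BL/6 3, against 6.86, and in 0 cells of the other 5 control mouse libraries, where fewer than 2 were due. It met Smpd3 in 5 cells against 19.1 in C57BL/6 3, in 26 against 46.4 in Lewis rat 1 and in 25 against 36.7 in Lewis rat 2. Cilp and Pi16 met in 30 cells against 42.1 in C57BL/6 3 and in 38 against 78.2 and 37 against 63.4 in rat. The smaller mouse libraries differed: the Cilp and Pi16 ratio was 0.36 in NOD control 1 and 0.53 in NOD control 2-1, but 1.19 in C57BL/6 1, 1.23 in C57BL/6 4 and 1.13 in NOD control 2-2. Cilp and Dpp4 met in 13 cells against 10.0 in C57BL/6 3, but in 2 against 9.2 and 4 against 6.63 in Lewis rat 1 and 2. Cells of 1 library are not replicates and these counts carry no test.

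**Figure D3:**
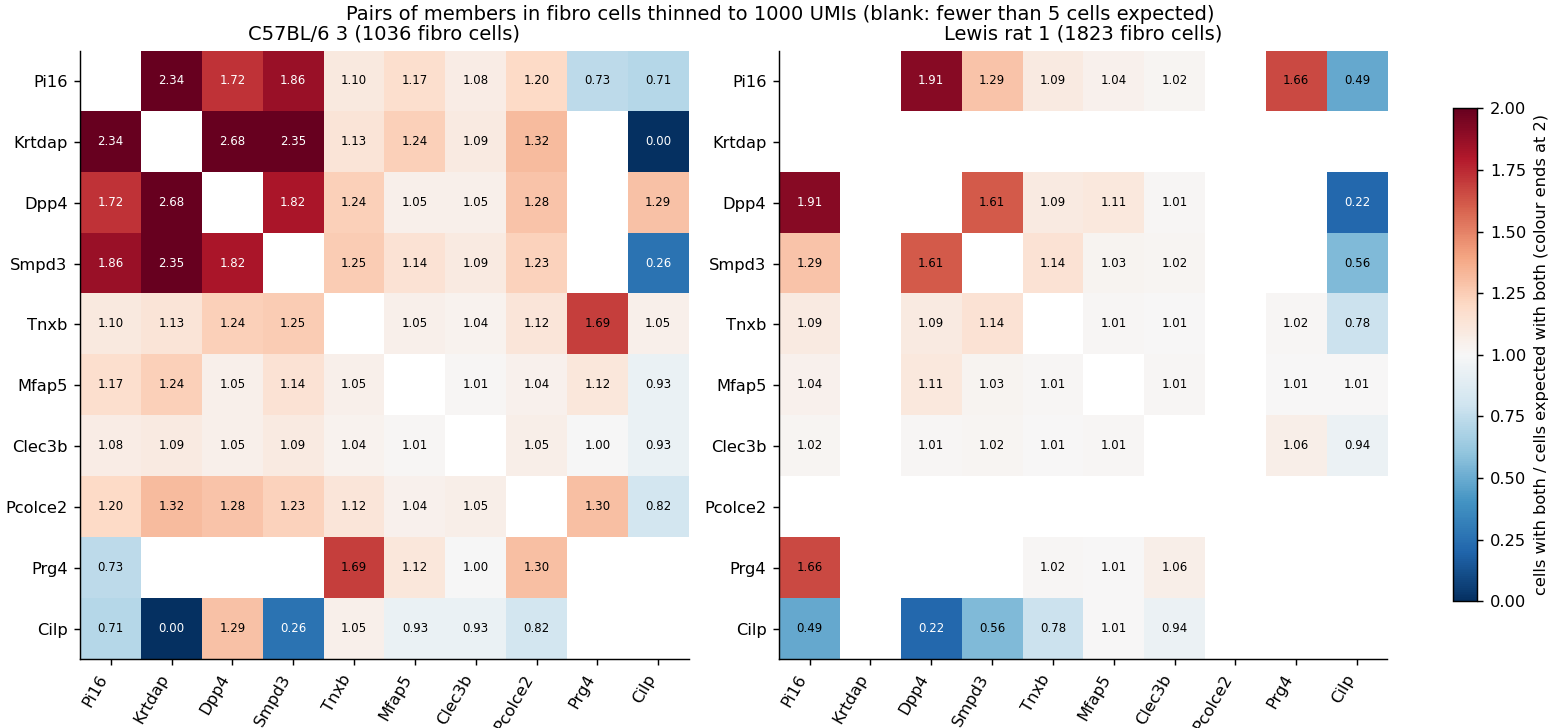
Cells holding both genes of a pair over the number given by the product of the single shares, in thinned fibro cells of C57BL/6 3 (1036 cells) and Lewis rat 1 (1823 cells). Blank squares had under 5 cells due and the colour scale ends at 2. Pairs among Pi16, Krtdap, Dpp4 and Smpd3 lie above 1 where shown, and pairs of Cilp with Smpd3 and Pi16 lie below 1 in both libraries.

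C57BL/6 nerve, which the series calls healthy, and NOD control nerve were compared to ask which of the genes differ between them. Strain and any effect of the neuritis model go together in this comparison and cannot be told apart. In fibro 2 of the 10 genes changed: Prg4 was higher and Smpd3 was lower in NOD control. All 10 genes passed the filter on low counts. Among the 4780 genes tested 87 were called at an edgeR adjusted p below 0.05, 45 higher and 42 lower (1.82%), and the median log2 change was 0.07 for the 10 genes and -0.01 for all genes tested.

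Prg4 in fibro averaged 13.1 ± 8.1 CPM (SD, n = 3) in C57BL/6 and 147 ± 65.1 CPM (SD, n = 2) in NOD control, a log2 change of 2.95 ± 0.43 (SE, edgeR adjusted p = 0.0010). Both NOD control samples lay above all 3 C57BL/6 samples. Exons of Prg4 overlap exons of Tpr on the other strand, and whether counting used strand is not given in the sources used here. Tpr itself differed by 0.74 ± 0.41 (edgeR adjusted p = 0.578) in the same fit. The call held in all 11 alternatives run, with log2 changes of 2.41 to 3.89. One of them was the fit with no filter on low counts, a filter that Prg4 passed through the NOD control samples alone.

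Smpd3 in fibro averaged 1346 ± 1456 CPM (SD, n = 3) in C57BL/6 and 86.1 ± 25.2 CPM (SD, n = 2) in NOD control, a log2 change of -4.29 ± 0.91 (SE, edgeR adjusted p = 0.0195). The groups did not overlap, but C57BL/6 1 alone carried most of the C57BL/6 mean. Smpd3 was found in 60.3% of C57BL/6 1 fibro cells (211 of 350), 29.7% of C57BL/6 3 (334 of 1123) and 41.0% of C57BL/6 4 (32 of 78), against 6.49% (15 of 231) and 9.72% (28 of 288) in NOD control. Without C57BL/6 1 the change was -2.55 (edgeR adjusted p = 0.0117), and with a term for library 1 of both strains it was -3.72 (edgeR adjusted p = 0.00737). The DESeq2 Wald test gave -4.34 with an adjusted p of 0.097, which ends the call. Prmt7, whose exons overlap those of Smpd3 on the other strand, differed by 0.84 ± 0.58 (edgeR adjusted p = 0.702).

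The other 8 genes did not pass the test in fibro. Tnxb was 391 ± 65.9 CPM in C57BL/6 and 666 ± 22.1 CPM in NOD control (log2 change 0.54 ± 0.34, edgeR adjusted p = 0.666). Cilp had a log2 change of 0.54 ± 0.34, Dpp4 of -0.29 ± 0.34, Pcolce2 of 0.28 ± 0.38 and Krtdap of -0.27 ± 0.42. Pi16, Clec3b and Mfap5 had log2 changes of 0.12 ± 0.48, -0.04 ± 0.47 and 0.02 ± 0.46. With 3 samples against 2, such standard errors leave changes of the size seen for Tnxb undecided.

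In nmSC 6 of the 10 genes passed the filter, and none was called, beside 175 of 7691 genes (2.28%), while 806 of the 7691 had an unadjusted p below 0.05 and DESeq2 called 78 genes, none of these 6. Tnxb came nearest, at 96.2 ± 34.4 CPM (n = 3) in C57BL/6 and 233 ± 4.61 CPM (n = 2) in NOD control, with a log2 change of 1.22 ± 0.33 (edgeR adjusted p = 0.059). It was called without C57BL/6 1 (adjusted p = 0.0121), without a filter (0.039) and with NOD control 2-1 and 2-2 as separate samples (0.0228), and not by DESeq2 (0.362). Smpd3 had a log2 change of -2.19 ± 0.70 (edgeR adjusted p = 0.144), which was -1.03 without C57BL/6 1 and -3.21 without C57BL/6 3 (adjusted p = 0.0218). In the fit without C57BL/6 3, Smpd3 passed the filter only through C57BL/6 1 and 4, where it is high, with 20 and 3 UMIs. That call is therefore no support for a change. Pi16 (0.87 ± 0.52), Dpp4 (-0.57 ± 0.40), Mfap5 (-0.52 ± 0.36) and Clec3b (-0.22 ± 0.35) did not pass.

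**Figure D4:**
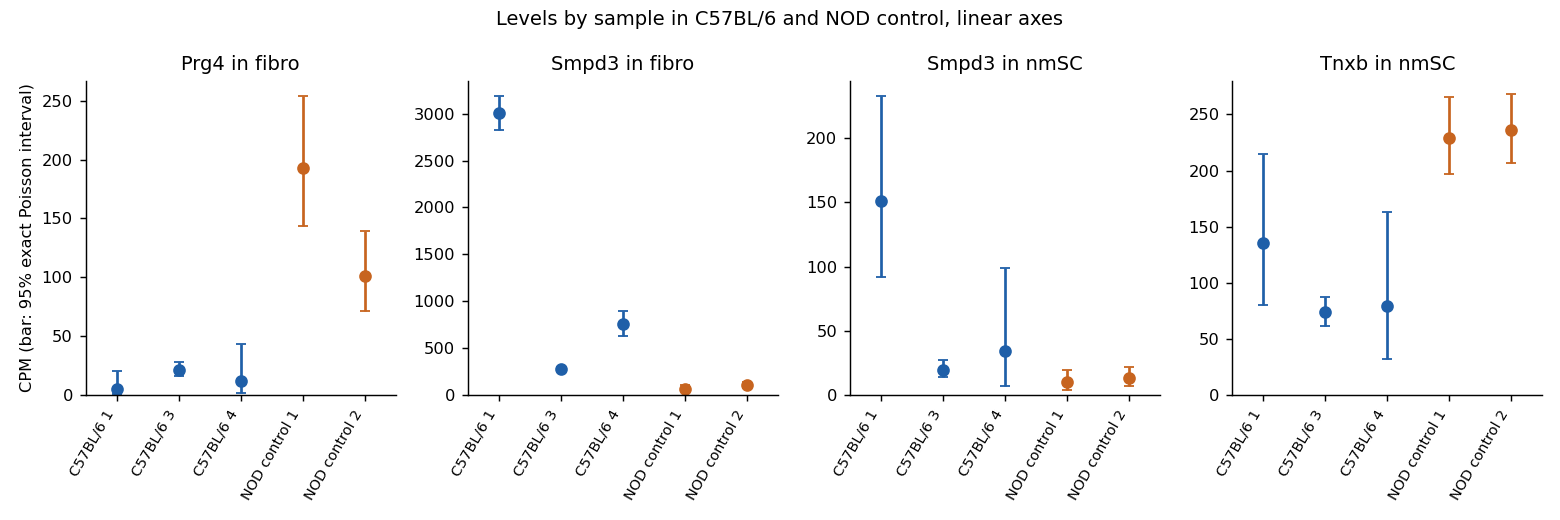
CPM by sample, on linear axes with 95% exact Poisson intervals, for Prg4 and Smpd3 in fibro and for Smpd3 and Tnxb in nmSC of C57BL/6 1, 3 and 4 and NOD control 1 and 2. The groups do not overlap in any of the 4 panels, and C57BL/6 1 is far above the rest for Smpd3.

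The strain change in fibro was set against that in nmSC in 1 model. None of the 10 genes was called, beside 44 of 5888 genes tested (0.747%), with 359 genes at an unadjusted p below 0.05 and 5 genes called by DESeq2. The difference of log2 changes, fibro less nmSC, was -1.29 ± 0.47 for Smpd3 (edgeR adjusted p = 0.389), -0.71 ± 0.29 for Tnxb (0.527) and 0.46 ± 0.24 for Mfap5 (0.849). Prg4 stood at -1.39 ± 1.27, and Pi16 stood at -0.57 ± 0.41 and was called without NOD control 1 (-1.5, adjusted p = 0.0403). Pcolce2, Krtdap, Cilp and Prg4 stood at no more than 5.06 CPM in nmSC and were tested only through their fibro counts, so their strain change in nmSC cannot be read. For the other 6 genes the strain changes in fibro and nmSC were not shown to differ. Of these, Pi16 in nmSC of C57BL/6 1, 3 and 4 stood at 7.55, 28.1 and 0 CPM, and in lymphocytes at 19.1, 24.4 and 6.72 CPM. In NOD control Pi16 was higher in nmSC than in lymphocytes. Smpd3 stood at 19.7 CPM in nmSC and 18.3 CPM in lymphocytes of C57BL/6 3, and was higher in nmSC in the other samples. The part of free RNA in these nmSC values was not tested.

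Few genes of the lists drawn up around the 10 genes passed the test in fibro. Of the elastic fibre and microfibril list, in which Mfap5 acts, 0 of 15 tested genes changed (median log2 change 0.09), with Ltbp4, which binds latent TGF-beta, at 1.06 ± 0.35 and Eln, elastin, at 0.96 ± 0.33 (edgeR adjusted p = 0.196 and 0.234). Of procollagen processing, the process that Pcolce2 serves, 0 of 3 changed, with the proteinase gene Bmp1 at 0.79 ± 0.32. Of the close relatives of the 10, 0 of 9 changed, Pcolce at 0.59 ± 0.42 among them, and of the other adventitial fibroblast genes 0 of 20 changed, with Sfrp4 at -1.32 ± 0.55. Of the endoneurial list 1 of 8 rose: Cxcl14, a chemokine gene, went from 130 ± 36.4 CPM (n = 3) to 800 ± 79.6 CPM (n = 2), a log2 change of 2.48 ± 0.32 (edgeR adjusted p = 0.00034). The summed endoneurial list stood at 1242, 2133 and 1802 CPM in fibro of C57BL/6 1, 3 and 4 and at 3531 and 4824 CPM in fibro of NOD control 1 and 2, without overlap. Its part in the strain differences in fibro was not tested.

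In nmSC 0 of 14 elastic fibre genes, 0 of 4 procollagen genes and 0 of 12 relatives changed between the strains. Of 16 tested adventitial genes Ly6c1 (2.12) and Ly6a (1.33), which encode surface antigens, rose and Anxa3 fell by 1.48 on the log2 scale. Of 13 tested endoneurial genes Cxcl14 (1.73) and Plxdc1 (1.36) rose. Of 2 tested endothelial genes Pecam1 rose. The summed endothelial list stood at 7.55 to 34.8 CPM in nmSC of C57BL/6 and at 50.1 to 119 CPM in nmSC of NOD control. Its part in the strain differences in nmSC was not tested. In the model of both sets, Fbln5, an elastic fibre gene, was called as higher in fibro relative to nmSC (1 of 15), and Ly6c1 as lower (1 of 20). Of 14 endoneurial genes Apod and Tgfbi were called, 1 in each direction, and of 8 immediate early genes Fos was called as lower.

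Samples labelled ICAM-1-/-NOD held only 20 fibro cells (4, 8 and 8) with 36807 UMIs, too few for a test, so their levels are given with counting intervals only. Clec3b had 120 UMIs there, 3260.2 CPM (95% exact Poisson interval 2703 to 3899), and was found in 18 of 20 cells. Mfap5 stood at 2581 CPM (2088 to 3155), Pi16 at 1549 CPM (1173 to 2006) and Pcolce2 at 625 CPM (396 to 938). Pooled NOD control fibro held these 4 genes, in the same order, at 3956, 2908, 3051 and 769 CPM. For Pi16 and, by little, for Clec3b that value lay above the upper bound with the label. By sample, NOD control 1 and 2 held Pi16 at 4213 and 2212 CPM and Clec3b at 4475 and 3582 CPM. The Clec3b value of NOD control 2 lay within the interval with the label. These intervals leave out the spread between samples, so whether levels differ with the label cannot be read from them. Cilp stood at 245 CPM (112 to 464) from 9 UMIs, Tnxb at 136 CPM (44.1 to 317) from 5 and Dpp4 at 109 CPM (29.6 to 278) from 4. Pooled NOD control fibro held Cilp, Tnxb and Dpp4 at 168, 664 and 130 CPM. Of these, the Tnxb value lay above the upper bound with the label and the Cilp and Dpp4 values lay within the intervals. Prg4 had 2 UMIs, and Smpd3 and Krtdap had none, which allows up to 81.5 CPM by a floor of 3 counts, below the 250.1 CPM of Krtdap in fibro of NOD control 1 and above its 73.8 CPM in NOD control 2.

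NOD control and ICAM-1-/-NOD libraries were compared to ask what differs with the knockout label inside 1 cell set. In nmSC 4 of the 10 genes passed the filter and Clec3b and Tnxb were lower with the label, beside 82 of 2101 genes called, 50 higher and 32 lower (3.9%). The nmSC sets held 982 and 1221 cells in NOD control and 49, 84 and 54 cells with the label.

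Clec3b in nmSC stood at 695 and 561 CPM in NOD control 1 and 2 and at 263, 273 and 216 CPM in ICAM-1-/-NOD 1 to 3. The groups did not overlap, and the means were 628 ± 94.1 CPM (SD, n = 2) and 251 ± 30.8 CPM (SD, n = 3). The log2 change was -1.33 ± 0.21 (SE, edgeR adjusted p = 0.0060), and the ratio of pooled rates was 0.412 (95% exact interval 0.322 to 0.521). Tnxb stood at 229 and 236 CPM in NOD control and at 91.2, 108 and 121 CPM with the label, a log2 change of -1.16 ± 0.27 (edgeR adjusted p = 0.0324) and a rate ratio of 0.453 (0.304 to 0.653). Tnxb with the label was thus near its C57BL/6 nmSC level of 73.6 to 136 CPM.

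Both calls rested on few cells and on all 3 libraries with the label. Clec3b had an adjusted p of 0.101, 0.1 and 0.062 without ICAM-1-/-NOD 1, 2 or 3, and Tnxb of 0.30, 0.242 and 0.134, fits in which 5723 to 5965 genes were tested instead of 2101. Tnxb was not called by DESeq2 (adjusted p = 0.0877). The size of the change moved little: -1.42, -1.42 and -1.26 for Clec3b, and -1.12, -1.19 and -1.25 for Tnxb. Whether the 3 libraries came from separate animals is not given; summed as 1 sample they gave an adjusted p of 0.775 for both genes.

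T cell transcripts and immediate early genes stood apart with the label in nmSC. The list of 7 T cell genes (Cd3e, Cd3d, Cd3g, Trac, Trbc1, Trbc2, Lck) summed to 344, 439 and 526 CPM with the label and to 5.01 and 86.6 CPM in NOD control, without overlap. Trbc2, the 1 gene of that list tested, had a log2 change of 3.09 ± 0.92 and was not called (edgeR adjusted p = 0.0835). The macrophage list overlapped, at 49.7 to 135 CPM with the label and at 16.3 to 115 CPM in NOD control, as did the B cell list, at 513 to 729 CPM and 587 to 909.9 CPM. The 8 immediate early genes, such as Fos, Jun and Egr1, which tissue dissociation is known to induce, summed to 13147, 13392 and 12664 CPM with the label and to 9869 and 6653 CPM in NOD control, without overlap. Of these 8 Junb rose, by 1.22 ± 0.21 on the log2 scale (edgeR adjusted p = 0.00861). The part of the T cell and immediate early lists in the lower Clec3b and Tnxb was not tested. Mfap5 in the same cells stood at 699.6 and 633 CPM in NOD control and at 699, 771 and 755 CPM with the label, a log2 change of 0.13 ± 0.18 (edgeR adjusted p = 0.734). Pi16 stood at 23.8 and 65.7 CPM and at 111, 41.4 and 94.4 CPM, from 11, 5 and 7 UMIs with the label, and the groups overlapped. Smpd3 had no UMI in nmSC of the 3 libraries with the label.

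Other matrix genes of nmSC were mostly not called with the label. Of 7 tested elastic fibre genes Efemp1, which encodes fibulin-3, rose by 1.04 ± 0.22 (edgeR adjusted p = 0.0261), while Fbn1, fibrillin-1, was at -0.93 ± 0.26 (adjusted p = 0.0731). Of procollagen processing 0 of 2 changed, with Pcolce at -0.62 ± 0.19 (adjusted p = 0.0835), and of the relatives 0 of 6. Of 11 adventitial genes Ly6a rose (1.13), of 11 endoneurial genes Wif1, a Wnt inhibitor gene, rose (2.57), and of 6 general fibroblast genes Col1a1 fell by 1.19 on the log2 scale.

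In mySC, the set with high Schwann cell genes, only Mfap5 passed the filter, and it was lower with the label, beside 195 of 1711 genes called, 96 higher and 99 lower (11.4%). Mfap5 had 8 UMIs in 20 cells of NOD control 1 (611 CPM) and 526 UMIs in 740 cells of NOD control 2 (947 CPM). It had 0, 0 and 1 UMI in 46, 28 and 50 cells of ICAM-1-/-NOD 1 to 3. The log2 change was -7.40 ± 0.64 (SE, edgeR adjusted p = 2.668e-07), and the ratio of pooled rates was 0.00532 (95% exact interval 0.000134 to 0.0297), from 1 of 200316 against 534 of 568652 UMIs. Mfap5 passed the filter through NOD control alone, where NOD control 2 gave nearly all of its UMIs. Its fitted log2 change rests on a single UMI with the label and depends on the prior count. The rate ratio pools the samples, and its interval covers counting error only, not the spread between samples. With no filter Mfap5 was also called (-7.32, edgeR adjusted p = 4.36e-19).

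Mfap5 was not a constant feature of mySC in the healthy strain. C57BL/6 1 had no UMI in 43 mySC cells, C57BL/6 3 had 8 UMIs in 355 cells (25.9 CPM) and C57BL/6 4 had 10 UMIs in 7 cells (1837 CPM). At 1000 UMIs Mfap5 was found in 2 of 68 C57BL/6 mySC cells, 89 of 128 NOD control cells and 0 of 71 cells with the label. Clec3b, found in most fibro cells, stood at only 0 and 23.4 CPM in mySC of NOD control.

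Marker lists also differed with the label in mySC. The summed list of 6 Schwann genes was at 9852 and 9682 CPM in NOD control and at 6702, 5459 and 4636 CPM with the label, and in C57BL/6 it was at 4957, 6147 and 12491 CPM. The highest C57BL/6 value belonged to C57BL/6 4, which also had the highest Mfap5 but held only 7 mySC cells, under the minimum of 20 used for tests. Of the 5 tested, 2 fell: S100b, a calcium-binding protein gene, by 2.90 and Mbp, the myelin basic protein gene, by 1.23 on the log2 scale. C57BL/6 1 and 3 had list levels near those with the label, and Mfap5 at 0 and 25.9 CPM. The T cell list stood at 415, 662 and 506 CPM with the label and at 0 and 99.0 CPM in NOD control, without overlap.

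Of 6 endoneurial genes tested in mySC, Apod, Spon2 and Abca8a fell, with log2 changes of -4.41, -5.67 and -1.75, and Cxcl14 rose (2.73). Of 5 general fibroblast genes Dcn and Gsn fell (-2.38 and -0.98) and Col3a1 rose (0.96). The perineurial gene Itgb4, the only gene of its list tested, also fell (-1.36). Of 8 immediate early genes Fosb and Fos fell (-1.32 and -0.84). The part of these lists in the Mfap5 difference was not tested. Without NOD control 2, Mfap5 was below the filter and got no test.

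**Figure D5:**
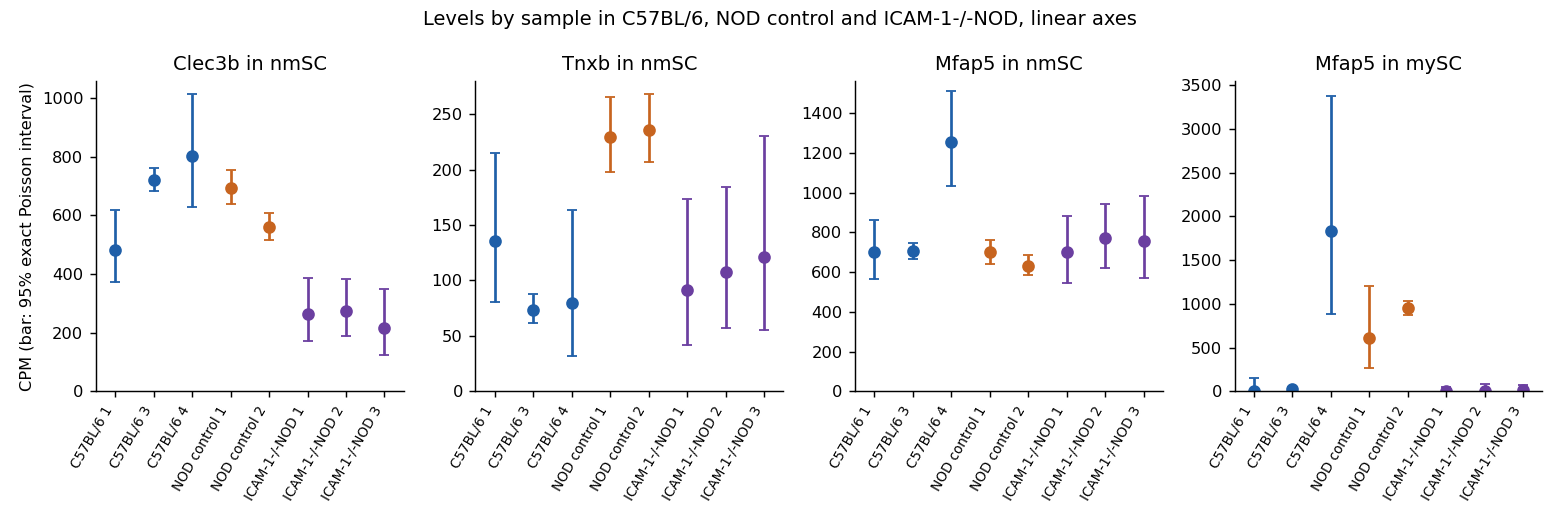
CPM by sample with 95% exact Poisson intervals for Clec3b, Tnxb and Mfap5 in nmSC and for Mfap5 in mySC, in C57BL/6, NOD control and ICAM-1-/-NOD samples. In nmSC Clec3b and Tnxb lie lower in all 3 samples with the knockout label than in both NOD control samples while Mfap5 does not, and in mySC Mfap5 is near 0 with the label and scattered in C57BL/6.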

How the data were processed

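For each species the authors deposited 1 matrix of raw UMI counts (genes by barcodes), a table that names the type of most barcodes, and barcodes that end in a library number. Reads were processed with Cell Ranger 3.0.2 on mm10 or Rnor_6.0, per the submitters' processing notes. Of the annotation release, strand use, clustering, cell naming, doublet removal and free-RNA correction, none is given in the sources used here. Libraries were prepared with 10x 3' version 2 chemistry and run on 2 sequencers, per the labels, without a key to which library ran on which. The library group of 0 barcodes differed from the deposited group code, and 0 columns of values were left unused.

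The 10 genes and the gene lists were chosen with earlier results of these data known. UMI counts were summed per sample and named cell type (Python 3.11.15, numpy 2.4.6, scipy 1.17.1, pandas 2.3.3), with NOD control 2-1 and 2-2 as 1 sample. Sets with 20 or more cells in all samples compared were tested, which left fibro and nmSC for C57BL/6 against NOD control and nmSC and mySC for NOD control against ICAM-1-/-NOD. All genes of a set were tested in 1 fit with edgeR 4.0.16 (R 4.3.3): filterByExpr with a minimum count of 10, TMM factors, quasi-likelihood test, no covariates, Benjamini-Hochberg adjustment over all genes tested and a threshold of 0.05. A standard error is the log2 change over the square root of its F value. The strain change in fibro against nmSC used the sample as a block. The edgeR step was tested on simulated counts. Intervals are 95% exact Poisson, binomial or conditional ones and cover counting error only, and a ratio to a set without UMIs uses a floor of 3 counts. Shares of cells and pairs of genes used cells thinned to 1000 UMIs. Named genes are the 10, up to 4 tested genes of each list with the lowest p in a comparison, and the 6 genes most like the 10 by Pearson's r of log2(CPM + 10) over sets of at least 20 cells, among genes of at least 50 CPM in fibro. The Schwann cell list was summed over 6 of its genes, chosen after the values were seen, and the others are not reported here. Genes were placed with GENCODE on GRCm38, the mm10 assembly, and promoters with RefSeq on GRCm38.p6. Gene exons that overlap a gene on the other strand were found for Pi16, Smpd3, Prg4, Dpp4 and Tnxb, whose counts are uncertain to that extent.

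Alternatives were RLE size factors, DESeq2 1.42.0, no filter, leaving out each sample, NOD control 2-1 and 2-2 as separate samples, removal of Scrublet doublets (scanpy 1.11.5, 0 to 2.22% of barcodes in a library), a term for library 1 of both strains, replicate number as a block, and the ICAM-1-/-NOD libraries summed. Figures were drawn with matplotlib 3.10.9.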

Additional observations from a re-analysis of the deposited data

Results flagged for a closer look

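Barcodes without a cell type name entered no comparison, and they also held UMIs of the 10 genes. Counted as genes above the level that 3 counts give, 8 of the 10 were present in the 202 unnamed barcodes of C57BL/6, all but Krtdap and Prg4. Mfap5 stood there at 713 CPM, Clec3b at 531, Tnxb at 376 and Pi16 at 277 CPM. In the 53 unnamed barcodes of NOD control, 4 genes were present, namely Pi16, Clec3b, Mfap5 and Tnxb. Of the 10 genes 2 were present, Dpp4 and Mfap5, in the 123 unnamed barcodes labelled ICAM-1-/-NOD. In the 140 unnamed rat barcodes 7 of 9 genes were present, with Clec3b at 972 CPM, and Krtdap and Prg4 were not above that level.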

How the results depend on the processing

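Over the single genes, 293 values under an alternative kept their direction and their side of the threshold, 23 changed sign, 11 lost the call and 7 gained it. Of the counts of called genes, 38 stayed within 1.5 times and 22 did not. For the strain change in fibro (87 genes) no filter gave 247, and leaving out each sample gave 55 (without C57BL/6 3) to 118. For the strain change in nmSC (175) DESeq2 gave 78 and no filter 286, and leaving out each sample gave 48 to 174. For the knockout label in nmSC (82, 50 up and 32 down) no filter gave 175 (69 up and 106 down), the summed ICAM-1-/-NOD libraries gave 3, and leaving out each sample gave 9 to 348 (153 up and 195 down without NOD control 2, 106 up and 137 down without NOD control 1). For the knockout label in mySC (195, 96 up and 99 down) DESeq2 gave 64 (42 up and 22 down), no filter 193 (73 up and 120 down), separate 2-1 and 2-2 gave 317, the summed ICAM-1-/-NOD libraries gave 121 (73 up and 48 down), and leaving out each sample gave 50 (36 up and 14 down, without NOD control 2) to 403 (145 up and 258 down, without NOD control 1). For the strain change in fibro against nmSC (44) DESeq2 gave 5, and leaving out each sample gave 21 to 50. Except where fewer samples or another number of genes tested enters by construction, the cause was not tested.

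With the replicate number as a block, 56 genes were called in nmSC and 92 in mySC, and Tnxb in nmSC had an edgeR adjusted p of 0.0538. Deviations of same-numbered samples from their group means correlated at 0.109 and -0.02 in nmSC and at -0.037 and 0.001 in mySC. With only 2 NOD control samples their deviations mirror each other, so these values cannot decide whether the numbers pair the samples.

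The log2 changes that took the other sign in some fit were uncalled, with an adjusted p of 0.868 or more there. Leaving out each sample in turn, the strain change in fibro ran from -0.422 to 0.470 for Pi16, from -0.323 to 0.666 for Pcolce2, from -1.37 to 0.354 for Krtdap, from -0.21 to 0.0743 for Clec3b and from -0.368 to 0.292 for Mfap5. With a term for library 1 it was -0.0364 for Pi16 and -0.0497 for Mfap5, and Mfap5 was at -0.0231 without a filter and -0.0551 with separate 2-1 and 2-2. In nmSC the strain change of Clec3b ran from -0.391 to 0.0168 without each sample, and the change of Mfap5 with the knockout label was -0.0687 without a filter. In fibro against nmSC the values without each sample ran from -3.28 to 0.843 for Pi16, from -3.59 to 0.903 for Pcolce2, from -0.484 to 3.46 for Krtdap, from -1.97 to 0.818 for Cilp, from -1.68 to 0.561 for Prg4 and from -0.16 to 0.733 for Dpp4, and DESeq2 gave 0.121 for Cilp and 1.11 for Prg4. Depth limited Prg4 in C57BL/6 1 and 4 and every gene in the 20 fibro cells labelled ICAM-1-/-NOD.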
